A study of Mus musculus with 10 samples.

Results

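The transcription factor genes of autonomic neurogenesis, *Isl1*, *Phox2a*, *Hand1*, *Hand2*, *Insm1*, *Gata2* and *Gata3*, were followed on 10 Affymetrix mouse Gene 1.0 ST arrays. They were taken as a list of symbols by a rule that does not use their values, but earlier results of these data were known at that point. All 7 were found among the 19937 genes that the platform annotation names by 1 symbol. Each is represented by its only probe set. On 3 arrays the RNA came from sacral neural crest progenitors (NCPs), nuclear Venus-positive cells sorted at E13 from mice that carry Tg(Sox10-HIST2H2BE/Venus)ASout, a *Sox10*-driven H2BVenus transgene, on the C3Fe background. The labels give the source of these cells as lower urogenital tract, the study's methods as dissected pelvic ganglia. The other 7 arrays carry total embryo RNA, for which neither the stage nor the transgene is given. The Venus reporter follows *Sox10*, and its histone fusion protein persists for a time in cells that leave the progenitor state, so the sort can hold early neurons beside progenitors and glial precursors.

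Autonomic neurons arise when crest cells that reach the sites of ganglia turn on a set of DNA-binding proteins that act together. *Phox2a* encodes a paired-type homeodomain protein of noradrenergic neurons, and *Hand1* and *Hand2* encode basic helix-loop-helix proteins, of which *Hand2* is needed for the noradrenergic traits of sympathetic neurons. *Gata2* and *Gata3* encode zinc finger proteins that act later in the same lineage, *Isl1* encodes a LIM-homeodomain protein of autonomic and sensory neurons, and *Insm1* encodes a zinc finger repressor of newly born neurons and endocrine cells. All of them also act elsewhere in the embryo, for example in heart, blood, skin, pancreas and spinal cord, so total embryo is a control that contains them.

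RefSeq promoter sequences (GRCm38.p6, from 250 bases before to 50 bases after the annotated start) were at hand for 5 of the members, and those of *Isl1*, *Phox2a* and *Hand2* are printed because these genes were higher in NCPs. Capitals mark the E-box CANNTG, the core that helix-loop-helix proteins such as *Hand2* bind, in the direction of transcription. The *Isl1* sequence lies at chr13:116309639-116309938 on the minus strand, that of *Phox2a* at chr7:101818063-101818362 on the plus strand and that of *Hand2* at chr8:57320733-57321032 on the plus strand.
Isl1: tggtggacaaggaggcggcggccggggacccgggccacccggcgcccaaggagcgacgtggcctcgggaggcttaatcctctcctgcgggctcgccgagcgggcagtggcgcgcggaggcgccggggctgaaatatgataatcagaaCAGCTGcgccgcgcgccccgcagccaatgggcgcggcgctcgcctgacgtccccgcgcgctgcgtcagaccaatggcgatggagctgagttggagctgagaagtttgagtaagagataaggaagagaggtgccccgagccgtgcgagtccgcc
Phox2a: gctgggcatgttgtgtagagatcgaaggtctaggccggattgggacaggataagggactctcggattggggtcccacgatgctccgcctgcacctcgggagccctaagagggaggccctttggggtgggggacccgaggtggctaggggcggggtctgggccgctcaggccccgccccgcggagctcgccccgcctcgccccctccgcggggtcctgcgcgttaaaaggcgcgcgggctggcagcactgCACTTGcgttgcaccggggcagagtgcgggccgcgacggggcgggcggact
Hand2: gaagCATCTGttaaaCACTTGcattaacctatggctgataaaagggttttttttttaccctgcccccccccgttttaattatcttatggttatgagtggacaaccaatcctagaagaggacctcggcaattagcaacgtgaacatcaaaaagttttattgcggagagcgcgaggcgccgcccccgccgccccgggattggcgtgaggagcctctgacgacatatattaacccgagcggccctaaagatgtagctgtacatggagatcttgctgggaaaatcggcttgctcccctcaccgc
The *Isl1* and *Phox2a* promoters held 1 E-box each and that of *Hand2* held 2. At least 1 E-box was present in 72.3% of the 32817 promoters of this length. The core GATA, read on both strands, occurred at 2 places in *Isl1* and in *Hand2*, at 1 in *Phox2a*, and in 57.9% of all promoters. The homeodomain core ATTA, also read on both strands, occurred in *Isl1* (2 matches) and *Hand2* (5 matches), in *Phox2a* not at all, and in 58.0% of all promoters. In *Isl1* and *Hand2* a GATA match shares bases with an ATTA match. *Gata3* had 1 E-box, and of the pair of *Gata2* promoters the upstream had none and the downstream had 1. These matches are a description of the sequences, and the share of all promoters that hold the same letters is high for each motif.

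The arrays differed in ways that touch every member. The deposited values are on a log2 scale after robust Multi-Array Average (RMA), and 1208 probe sets of odorant and pheromone receptor genes, silent in most tissues, gave the level of background, called the receptor floor here. The median of 8 housekeeping genes lay 3.26, 0.62 and 4.31 above the floor's median on NCP arrays 1, 2 and 3, and 6.79 to 7.26 above it on the total embryo arrays. NCP array 2 therefore stood apart, and each member's change is also given without it. By the tags in their titles the 7 total embryo arrays were read as 2 RNAs (on 4 and 3 arrays), where 1 tag that lacks a digit was taken as a spelling of another. Of these arrays 1 shares the date in its title with the NCP arrays. The methods describe independent pools of dissected tissue as the unit of collection, but neither they nor the labels tie the arrays to pools or animals, so p-values measure only the spread between these arrays, which may be technical. *Sox10* itself was at 7.95, 7.14 and 7.60 on NCP arrays 1, 2 and 3 and between 6.38 and 6.65 on the total embryo arrays, higher by 1.002 on the log2 scale. Of the 8 neural crest and glial progenitor markers measured, 3 were higher in NCPs and 3 lower (2 and 2 after level adjustment, a correction described with *Isl1*). Of all probe sets 39.6% were called higher and 27.5% lower, and 10.3% and 8.29% after that adjustment. Beside *Sox10*, *Cdh19* (2.30), a cadherin gene of Schwann cell precursors, and *Foxd3* (1.33), a factor gene of crest progenitors, were higher. *Fabp7* (−4.39), which encodes a fatty acid binding protein of glial precursors, and *Ednrb* (−1.35), the endothelin receptor gene of crest cells, were among the lower. After level adjustment *Foxd3* (0.78) and *Fabp7* (−1.74) passed, and *Cdh19* (0.32) and *Ednrb* (0.30) did not. The mean level of these markers ranged from 6.14 to 6.98 on the NCP arrays and from 6.65 to 6.80 in total embryo. In the NCPs *Cdh19* and *Erbb3*, the neuregulin receptor gene of glial precursors, lay at the 57.7 and 45.0 percentiles of the floor, and so were not shown to be above background. *Erbb3* was lower (−1.20) and stayed lower after level adjustment (−0.95, adjusted p = 0.00740 in limma).

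Of the 7 transcription factor genes, *Isl1*, *Phox2a*, *Hand2* and *Insm1* were higher in NCPs than in total embryo, none was lower, and *Hand1*, *Gata2* and *Gata3* did not pass the test (limma over all 28192 probe sets, Benjamini-Hochberg adjusted p under 0.05; 5 members higher and 0 lower at an unadjusted p under 0.05). The same test called 39.6% of all probe sets higher and 27.5% lower. The same 4 genes had all NCP arrays above all total embryo arrays, as had 31.8% of all probe sets. The median log2 fold change was 0.55 over the members and 0.23 over all probe sets. In RNA of whole samples, fewer cells of a type and less RNA per cell cannot be told apart. With the arrays averaged per RNA (3 NCP against 2 total embryo), 0 of the members passed, and 3 had an unadjusted p under 0.05, where 20.4% of all probe sets were called higher. With the title tags taken as written (3 NCP against 3 total embryo, a setting chosen after seeing the data), *Isl1*, *Phox2a* and *Insm1* passed, against 30.2% of all probe sets, so the count of 0 rests on how that tag was read. Against the single total embryo array of the same title date 0 members passed in limma (1 unadjusted), with 1.29% of all probe sets called higher. Without NCP array 2 the count stayed at 4, against 39.4% of all probe sets, and with RNA as a random block it was 3, against 28.4%, with *Hand2* the member lost.

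**Figure D1:**
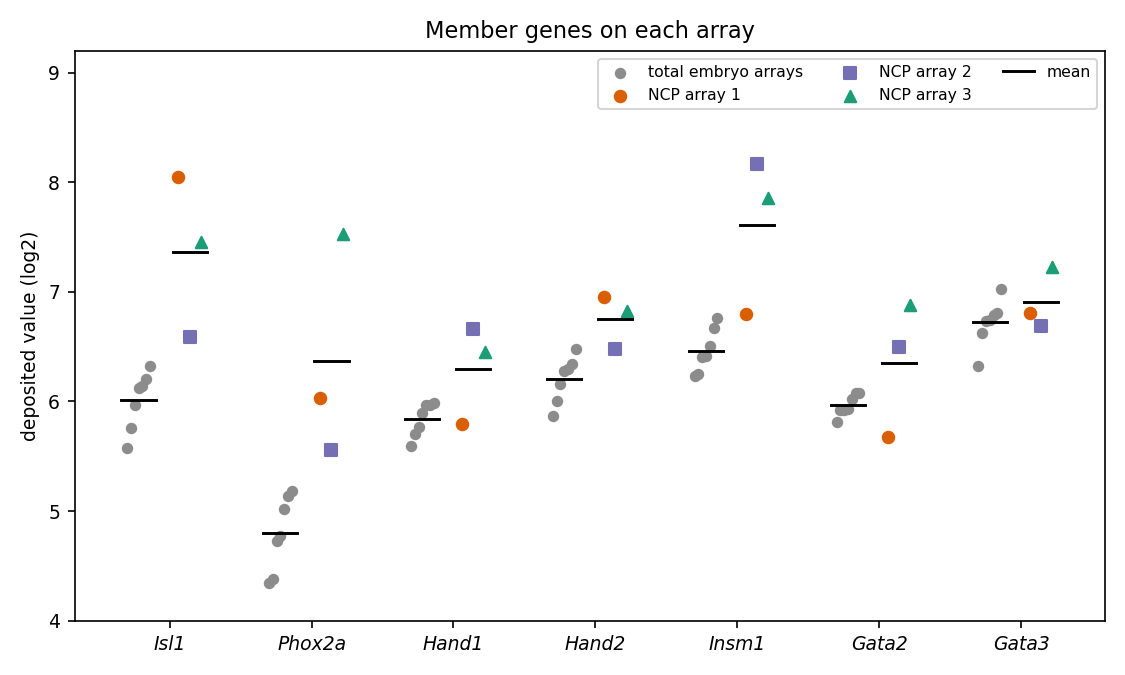
Deposited log2 value (vertical axis) of each member gene (horizontal axis) on the 7 total embryo arrays (grey, drawn from lowest to highest) and on NCP arrays 1, 2 and 3 (orange circles, purple squares, green triangles), with black lines at the group means. *Isl1*, *Phox2a*, *Hand2* and *Insm1* have all NCP arrays above all total embryo arrays, and the NCP array with the highest value differs from gene to gene.

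*Isl1*, the LIM-homeodomain gene, was higher in NCPs by 1.35 on the log2 scale. It was at 8.05, 6.59 and 7.45 on NCP arrays 1, 2 and 3, against 5.58 (lowest), 6.12 (median) and 6.32 (highest) on the total embryo arrays. All 3 NCP arrays lay above the 7 total embryo arrays, array 2 by the smallest margin. The means were 7.36 ± 0.74 (SD, n = 3 arrays) and 6.01 ± 0.26 (SD, n = 7 arrays), with a standard error of 0.27, a 95% interval of 0.76 to 1.94 and an adjusted p of 0.000738. Without NCP array 2 the change was 1.74. On NCP arrays 1 and 3 *Isl1* stood at the 99.9 and 99.3 percentiles of the receptor floor. On array 2 it stood at the 89.1 percentile, where it was not shown to be above background. Level adjustment, which removes from every array its smooth dependence on the level in total embryo, left a change of 1.13 that passed (adjusted p = 0.0110). Averaged per RNA it was 1.37 and did not pass (adjusted p = 0.0558), and against the array of the same title date it was 1.60 (adjusted p = 0.183).

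Other neurons that use *Isl1* were represented by 2 marker lists that moved the same way. Of 7 spinal motor neuron markers 6 were higher and 0 lower (6 and 0 at an unadjusted p under 0.05), with a mean level of 6.07 to 6.44 on the NCP arrays against 5.24 to 5.47 in total embryo. The homeobox genes *Mnx1* (1.95) and *Lhx3* (1.02), which specify motor neurons, rose most. Of 6 sensory neuron markers 5 were higher and 1 lower, with a mean level of 6.14 to 6.41 against 5.23 to 5.47, led by *Trpv1* (1.96), the capsaicin receptor gene, and *Neurog1* (1.73), a determinant of sensory neurons, while *Runx1* fell (−0.63). *Mnx1* and *Trpv1* lay at mean percentiles of 72.7 and 78.5 of the floor in NCPs, so neither was shown to be above background. After level adjustment 2 motor and 1 sensory marker remained higher, *Lhx3* (0.66) and *Neurog1* (0.97) among them. Of all probe sets 39.6% were called higher and 27.5% lower before it, and 10.3% higher after it. Probe sets of low total embryo level were mostly higher on the NCP arrays, as a later comparison shows. The part of these genes in the *Isl1* result was not tested.

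*Insm1*, the zinc finger repressor gene, was higher by 1.14. Its values were 6.80, 8.16 and 7.85 on NCP arrays 1, 2 and 3, against 6.23, 6.41 and 6.76 (lowest, median and highest) in total embryo. NCP array 1 cleared the highest total embryo array by the least, while arrays 2 and 3 lay well above all of them. The means were 7.61 ± 0.71 (SD, n = 3 arrays) and 6.46 ± 0.20 (SD, n = 7 arrays), with a standard error of 0.25, a 95% interval of 0.59 to 1.69 and an adjusted p of 0.00154. *Insm1* thus had its highest value on NCP array 2, the array with the smallest separation between housekeeping genes and floor, where it stood at the 99.9 percentile of the receptor genes. Without that array the change was 0.87 and passed (adjusted p = 0.00951). After level adjustment it was 1.27 (adjusted p = 0.00560). Averaged per RNA it was 1.15 (adjusted p = 0.0853) and against the array of the same title date 1.20 (adjusted p = 0.297), neither past the threshold.

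Endocrine pancreas, another tissue of *Insm1*, had 4 of 9 markers higher and 2 lower, and 1 and 1 after level adjustment, with 39.6% and 27.5% of all probe sets called before it and 10.3% and 8.29% after. *Neurod1* (1.07) and *Neurog3* (0.98), helix-loop-helix genes of endocrine precursors, rose, and the hormone gene *Ins2* (−1.08) and the granin gene *Chga* (−0.49) fell. The mean level of the list was 6.30 to 6.54 on the NCP arrays and 6.13 to 6.46 in total embryo. Its part in the *Insm1* result was not tested. *Neurod1* and *Neurog3* lay at mean percentiles of 75.5 and 82.8 of the floor in NCPs, and neither passed after level adjustment (0.15 and 0.23).

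*Phox2a*, the homeodomain gene of noradrenergic neurons, was higher by 1.58. It was at 6.03, 5.56 and 7.53 on NCP arrays 1, 2 and 3, against 4.35, 4.77 and 5.19 in total embryo (lowest, median, highest). NCP array 3 lay far above the other arrays of its group. The means were 6.37 ± 1.03 (SD, n = 3 arrays) and 4.80 ± 0.34 (SD, n = 7 arrays), with a standard error of 0.35, a 95% interval of 0.82 to 2.34 and an adjusted p of 0.00154. Its spread between NCP arrays was at the 95.9 percentile of 1000 probe sets of similar NCP level, whose median SD was 0.44. Only on array 3 did *Phox2a* stand clear of the receptor floor, at the 99.7 percentile, against 78.9 on array 1 and 45.4 on array 2. On the total embryo arrays it lay at percentiles of 71.7 to 90.6, so it was not shown to be above background there or on NCP arrays 1 and 2, and its fold change is the difference of the deposited values and not a measured ratio of transcript. Without array 3 the change was 0.9996 and without array 2 it was 1.98. After level adjustment it was 0.54 (adjusted p = 0.323), averaged per RNA 1.55 (adjusted p = 0.0776), and against the array of the same title date 1.19 (adjusted p = 0.374).

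*Hand2*, needed for noradrenergic traits, was higher by 0.55. Its values of 6.95, 6.48 and 6.82 on NCP arrays 1, 2 and 3 were set against 5.87, 6.28 and 6.48 in total embryo (lowest, median, highest). The groups did not overlap, but NCP array 2 exceeded the highest total embryo array by a margin that 2 decimals do not show. *Hand2* stood at the 96.6, 85.7 and 96.8 percentiles of the receptor floor on NCP arrays 1, 2 and 3. On array 2 it was thus not shown to be above background. On the total embryo arrays it stood at percentiles of 97.6 to 99.8. The means were 6.75 ± 0.24 (SD, n = 3 arrays) and 6.20 ± 0.21 (SD, n = 7 arrays), with a standard error of 0.18 and an adjusted p of 0.0154. It did not pass without NCP array 1 (0.45, adjusted p = 0.0562), after level adjustment (0.47, adjusted p = 0.0813), averaged per RNA (0.55, adjusted p = 0.195), or against the array of the same title date (0.28, adjusted p = 0.797). With RNA as a random block it did not pass either (0.55, adjusted p = 0.153), nor against the total embryo RNA of 3 arrays alone (0.58, adjusted p = 0.114) or of 4 arrays alone (0.52, adjusted p = 0.0560). Without NCP array 2 it was 0.68 (adjusted p = 0.00587).

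Its paralog *Hand1* was at 5.79, 6.66 and 6.45 on NCP arrays 1, 2 and 3, against 5.60, 5.89 and 5.99 (lowest, median, highest) in total embryo. NCP array 1 fell inside the range of total embryo and the other 2 above it. *Hand1* stood at the 67.7, 91.0 and 91.8 percentiles of the floor on NCP arrays 1, 2 and 3. It was thus not shown to be above background on any NCP array. The difference was 0.46 (standard error 0.19, 95% interval 0.038 to 0.88, adjusted p = 0.0517) and did not pass, although it did without array 1 (0.71, adjusted p = 0.00265). Without array 2 it fell to 0.28 (adjusted p = 0.219). After level adjustment it was 0.11 (adjusted p = 0.719) and averaged per RNA it was 0.45 (adjusted p = 0.359), neither past the threshold. Against the array of the same title date it was 0.33 (adjusted p = 0.765). *Hand1* was lowest and *Hand2* highest on NCP array 1, so the paralogs ran in opposite order between arrays 1 and 2.

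The *Hand* genes also act in heart and limb mesenchyme. Of 8 heart markers 5 were lower and 2 higher (1 and 1 after level adjustment), with a mean level of 6.28 to 6.57 on the NCP arrays against 8.11 to 8.54. The sarcomere genes *Actc1* (−5.94) and *Tnnt2* (−3.86) fell, and the cardiac factor genes *Nkx2-5* (0.62) and *Tbx5* (0.53) were higher. In NCPs *Actc1* and *Tbx5* lay at mean percentiles of 74.2 and 53.5 of the floor, so neither was shown to be above background, and *Tbx5* was at −0.36 after level adjustment and did not pass. Of 7 limb and branchial mesenchyme markers 3 were higher and 1 lower, and 1 and 0 after level adjustment (0 lower also at an unadjusted p under 0.05 in limma; mean level 6.36 to 6.78 against 6.58 to 6.72), with the homeobox genes *Msx1* (0.74) and *Barx1* (0.64) higher and *Prrx1* (−2.02) lower. Of 4 trophoblast and extraembryonic mesoderm markers 1 was higher, *Tpbpa* (2.75), which lay at the 49.8 percentile of the floor in NCPs (mean level of the list 5.61 to 6.99 against 5.03 to 5.26). After level adjustment 0 trophoblast markers passed in limma (0 also at an unadjusted p under 0.05), and *Tpbpa* was at 0.61 (adjusted p = 0.362). Of all probe sets 39.6% were called higher and 27.5% lower before that adjustment, and 10.3% and 8.29% after it. The part of these lists in the *Hand1* and *Hand2* values was not tested.

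The GATA genes did not pass the test. *Gata2* was at 5.68, 6.50 and 6.88 on NCP arrays 1, 2 and 3, against 5.81, 5.93 and 6.08 (lowest, median, highest) in total embryo. NCP array 1 lay below every total embryo array and arrays 2 and 3 above every one. The difference was 0.39 (standard error 0.22, 95% interval −0.088 to 0.86, adjusted p = 0.135), and it passed without array 1 (0.72, adjusted p = 0.00195). Without array 3 it was 0.12 (adjusted p = 0.611) and without array 2 it was 0.31 (adjusted p = 0.282). On NCP arrays 1, 2 and 3 *Gata2* stood at the 62.3, 86.3 and 97.5 percentiles of the floor. It was thus not shown to be above background on arrays 1 and 2. Against the array of the same title date the difference was 0.43 (adjusted p = 0.713).

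*Gata3* was at 6.80, 6.69 and 7.23 on NCP arrays 1, 2 and 3, against 6.33, 6.74 and 7.02 in total embryo (lowest, median, highest). Only array 3 lay above the total embryo range. *Gata3* stood at the 95.4, 92.1 and 98.8 percentiles of the floor on NCP arrays 1, 2 and 3, and at 99.3 to 99.9 in total embryo. It was thus not shown to be above background on NCP array 2. The difference was 0.18 (standard error 0.18, 95% interval −0.21 to 0.58, adjusted p = 0.387), and 0.58 against the array of the same title date (adjusted p = 0.561). Without array 3 it was 0.023 (adjusted p = 0.918) and without array 2 it was 0.29 (adjusted p = 0.201). *Gata3* passed after quantile normalization again (0.73, adjusted p = 0.0145), cyclic loess (0.71, adjusted p = 0.00724) and level adjustment (0.54, adjusted p = 0.0447). Genes of its level in total embryo were mostly lower in NCPs, as the next comparison shows.

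Blood uses *Gata2* and surface epithelium *Gata3*. Of 7 erythroid markers 2 were lower and 0 higher (2 and 0 at an unadjusted p under 0.05), namely *Alas2* (−2.61), the heme synthesis gene of red cells, and *Slc4a1* (−1.54), the band 3 gene, with a mean level of 6.13 to 6.31 on the NCP arrays against 6.70 to 7.01. Of 9 epidermis and urothelium markers 5 were lower and 0 higher (5 and 0 at an unadjusted p under 0.05), including the keratin genes *Krt8* (−3.90) and *Krt5* (−3.59), with a mean level of 6.19 to 6.51 against 7.74 to 8.33. Of all probe sets 27.5% were called lower and 39.6% higher. After level adjustment 1 erythroid marker was lower and 1 higher, and neither *Alas2* (−0.60) nor *Slc4a1* (−0.25) passed. Of the epidermis and urothelium markers 4 were then lower and 0 higher (1 higher at an unadjusted p under 0.05 in limma). Level adjustment called 8.29% of all probe sets lower and 10.3% higher. The part of these lists in the GATA values was not tested. In NCPs *Alas2* and *Krt8* lay at mean percentiles of 79.3 and 54.3 of the floor.

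Probe sets of low total embryo level were mostly higher on the NCP arrays and those of high level mostly lower, so each member was set against the 1000 probe sets nearest to it in mean total embryo level. *Isl1* and *Insm1* stood near the top of their neighbours, at the 98 and 98.4 percentiles, with changes 1.13 and 1.26 above the neighbours' medians of 0.22 and −0.12. Of the neighbours of *Isl1* 25% were called higher, and of those of *Insm1* 9.4%. *Sox10*, the gene of the reporter, stood at the 97.7 percentile by the same measure. *Phox2a* stood lower among its neighbours, at the 89.2 percentile, and the neighbours' own median change was 1.04, with 85.9% of them called higher. *Hand2* was at the 83.8 percentile (0.46 above the median) and *Gata3* at the 84 percentile (0.56 above a median of −0.38). *Hand1* and *Gata2* lay close to the middle, at the 62.7 and 63.1 percentiles, 0.14 above their neighbours' medians in each case.

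**Figure D2:**
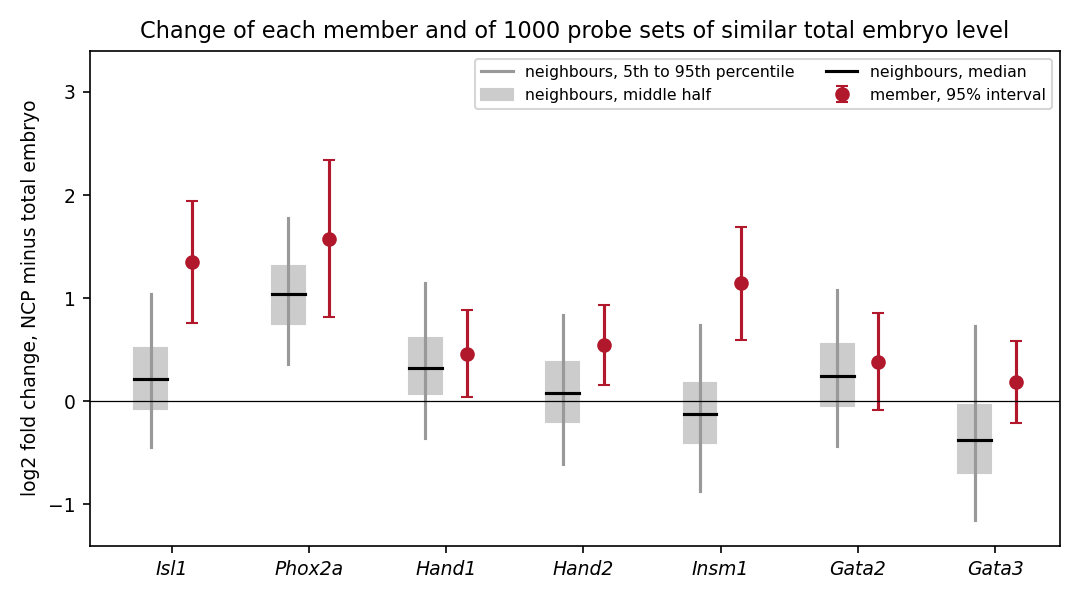
Log2 fold change (NCP minus total embryo, vertical axis) of each member (red, with its 95% interval) beside the 1000 probe sets nearest in total embryo level (grey box for the middle 50 percent, line from the 5th to the 95th percentile, black line at the median). The neighbours' medians run from 1.04 for *Phox2a* to −0.38 for *Gata3*, and *Isl1* and *Insm1* lie above the 95th percentile of theirs.

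The places were computed again when the level came from 1 total embryo RNA and the change from the other, when 500 or 2000 neighbours were used, when receptor genes were left out, and without NCP array 2. Over these settings the percentile ranged from 95.3 to 99.4 for *Isl1*, from 95.8 to 99.2 for *Insm1*, from 78.1 to 86.9 for *Hand2* and from 55.7 to 64.3 for *Gata2*. It moved more for *Phox2a* (74.6 to 96.7), *Gata3* (71.3 to 91.2) and *Hand1* (43.6 to 71.4). After level adjustment *Isl1*, *Insm1* and *Gata3* were higher by limma, 3 of the 7, and 0 were lower (0 also at an unadjusted p under 0.05), where 10.3% of all probe sets were called higher and 8.29% lower.

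Array by array, the members did not move together. *Isl1* was at the 99.5, 73 and 96.8 percentiles of its neighbours on NCP arrays 1, 2 and 3. *Insm1* was at the 76, 99.4 and 98.3 percentiles, so its lowest place was on the array where *Isl1* was highest. *Phox2a* went from the 29 percentile on array 2 to 98.5 on array 3. NCP array 3 was the only array on which all 7 members lay above the middle of their neighbours, from 69.3 (*Hand1*) to 98.5 (*Phox2a*). On array 1 *Hand1* and *Gata2* were at the 20.7 and 16.2 percentiles, and on array 2 only *Phox2a* was below the middle. *Sox10* stayed between 88.9 and 98.1.

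**Figure D3:**
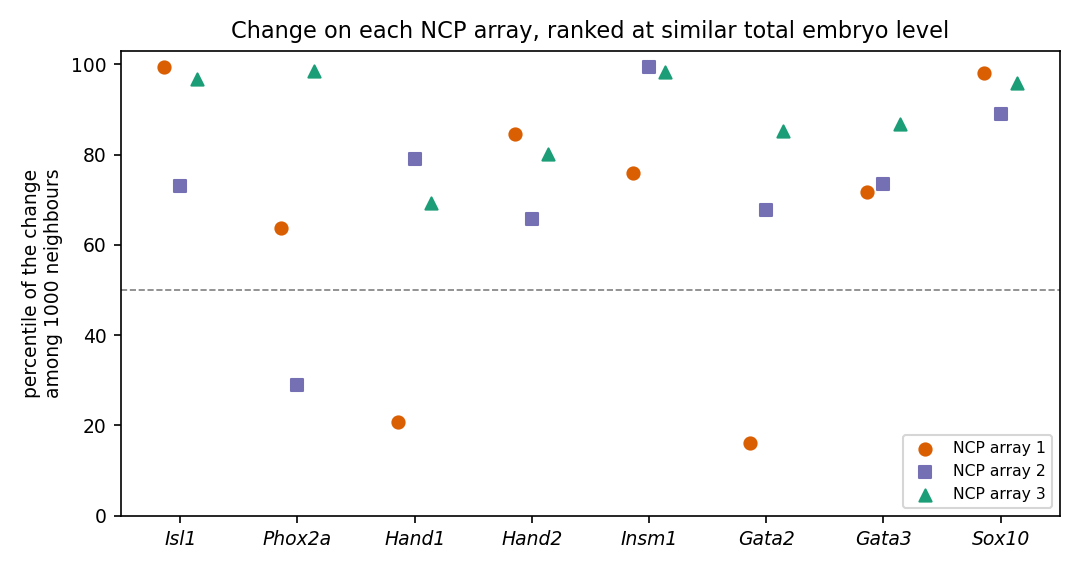
Percentile of each member's change among 1000 probe sets of similar total embryo level (vertical axis) on NCP arrays 1, 2 and 3 (orange circles, purple squares, green triangles), with *Sox10* for comparison and a dashed line at the middle. *Isl1* and *Insm1* exceed the 96th percentile on different pairs of arrays, while *Hand1* and *Gata2* fall below the 21st on array 1.

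Over all 10 arrays the members' values correlated most for *Isl1* with *Hand2* (Pearson r = 0.855) and *Hand1* with *Insm1* (r = 0.835), and least for *Hand1* with *Gata3* (r = 0.086). These are descriptions over 10 arrays that share 2 total embryo RNAs and the difference between the groups. The genes most like *Isl1* over these arrays were *Ccdc189* (r = 0.979), *2010204K13Rik* (0.976) and *B430306N03Rik* (0.975). Those most like *Phox2a* were *Npbwr1* (0.986), *Asb16* (0.981) and *Adam32* (0.978), and those most like *Hand2* were *Olfr539* (0.964), *Ly6m* (0.954) and *Zfp36l3* (0.954). For *Insm1* they were *AI854703* (0.988), *H2-M10.1* (0.985) and *Olfr787* (0.982). Of these, *Olfr539* and *Olfr787* belong to the receptor genes that served as the floor.

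Among other factors of autonomic neurogenesis, 10 of the 12 listed were measured, of which 3 were higher and 3 lower (median −0.012). Of all probe sets 39.6% were called higher and 27.5% lower, and 10.3% and 8.29% after level adjustment. *Tlx2* (1.62, standard error 0.24, adjusted p = 6.48e-05) and *Tlx3* (1.38, standard error 0.22, adjusted p = 0.00011), homeobox genes of crest-derived neurons, rose and had all NCP arrays above all total embryo arrays. Both remained higher after level adjustment (1.22 and 0.9994), when 4 of the 10 were higher and 0 lower (2 lower at an unadjusted p under 0.05). *Ebf1* (−1.87), a helix-loop-helix gene of neuronal differentiation, and *Tfap2b* (−0.97), a gene of sympathetic precursors, fell but did not pass after level adjustment (−0.49 and −0.56). They lay at mean percentiles of 74.3 and 64.2 of the floor in NCPs, so neither was shown to be above background there.

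Partners of the members were mixed. Of 10 cofactor and dimer partner genes 2 were higher and 4 lower (median −0.23), against 39.6% and 27.5% of all probe sets. After level adjustment the gene counts were 2 and 0 (0 lower also at an unadjusted p under 0.05), against 10.3% and 8.29%. *Lmo1*, a LIM-only gene, rose by 0.66 (adjusted p = 0.00944) and by 0.74 after level adjustment, and *Zfpm1* (0.51), the FOG1 gene whose protein binds GATA factors, rose but not after level adjustment (0.051). *Tcf12* (−2.34), an E-protein gene whose product pairs with HAND proteins, and *Kdm1a* (−1.63), a demethylase gene of the repressor complex that zinc finger repressors recruit, fell, and neither passed after level adjustment (−0.53 and 0.25). In NCPs *Zfpm1* and *Tcf12* lay at mean percentiles of 78.4 and 71.2 of the floor, so by this mean neither was shown to be above background. Of 7 family relatives 2 were higher and 2 lower (median 0.26) and 0 either way after level adjustment (0 also at an unadjusted p under 0.05). *Insm2* (0.63) and *Isl2* (0.50) rose, at mean percentiles of 61.4 and 56.2 of the floor in NCPs, while *Gata6* (−1.29) and the *Hand*-related gene *Twist2* (−0.85) fell. *Gata6* and *Twist2* lay at 76.7 and 80.9 there. By these means none of the named relatives was shown to be above background in NCPs.

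Genes that autonomic neurons use to make and take up transmitters changed with the scaling. Of 9 noradrenergic and cholinergic genes 6 were higher and 1 lower (median 0.92), against 39.6% and 27.5% of all probe sets. The transporter genes *Slc6a2* (1.28), for noradrenaline, and *Slc5a7* (1.25), for choline, led, while *Gch1* (−1.17), for the cofactor of tyrosine hydroxylase, fell. None of the 9 was higher after level adjustment in limma (0 also at an unadjusted p under 0.05, median 0.080), with *Slc6a2* at 0.39 and *Slc5a7* at −0.035. In NCPs *Slc6a2*, *Slc5a7* and *Gch1* lay at mean percentiles of 80.3, 57.6 and 49.4 of the floor, so none was shown to be above background there. In total embryo *Slc6a2* and *Slc5a7* lay at 88.7 and 72.9 and were not shown to be above it either, while *Gch1* lay at 99.4. Of 10 neuron genes 3 were higher and 4 lower (median 0.25), and 4 were higher and 0 lower after level adjustment (1 lower at an unadjusted p under 0.05). The neurofilament gene *Nefl* rose by 0.67 and by 1.62 after level adjustment, whereas the growth cone gene *Gap43* fell (−1.71) and turned higher (0.62) under that adjustment. *Elavl4* (0.57), an RNA-binding protein gene of neurons, rose and *Tubb3* (−3.72), a neuronal tubulin gene, fell, and neither passed after level adjustment (0.17 and −1.14). In NCPs they lay at mean percentiles of 80.5 and 71.4 of the floor, so by this mean neither was shown to be above background. The SD of *Tubb3* between the NCP arrays was 2.44. All 8 housekeeping genes were lower (median −2.14), with *Sdha* (−3.83) and *B2m* (−3.73) the lowest, and 2 were higher and 2 lower after level adjustment. *Sdha* and *B2m* lay at mean percentiles of 73.0 and 81.65 of the floor in NCPs. The adjustment called 10.3% of all probe sets higher and 8.29% lower.

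With arrays centred on the receptor genes, all 7 changes turned negative (from −0.12 for *Phox2a* to −1.51 for *Gata3*), and the median of all probe sets moved from 0.23 to −1.47. Relative to that median, *Phox2a* (1.35), *Isl1* (1.12) and *Insm1* (0.92) kept their places, since this centring shifts all genes alike, and *Gata3* lay at −0.043. Under this centring limma called 0 genes of the other lists higher except 1 trophoblast marker (that marker and 1 crest marker at an unadjusted p under 0.05), and all 8 heart markers and all 8 housekeeping genes lower. Of all 28192 probe sets it called 21976 lower and 1338 higher. Under quantile normalization again and cyclic loess, *Isl1* (1.97 and 1.48) and *Insm1* (2.06 and 1.70) were past the threshold and *Phox2a* (1.33 and 0.70) was not. These settings called 22.6% and 16.9% of all probe sets higher, and 4 members each.

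**Figure D4:**
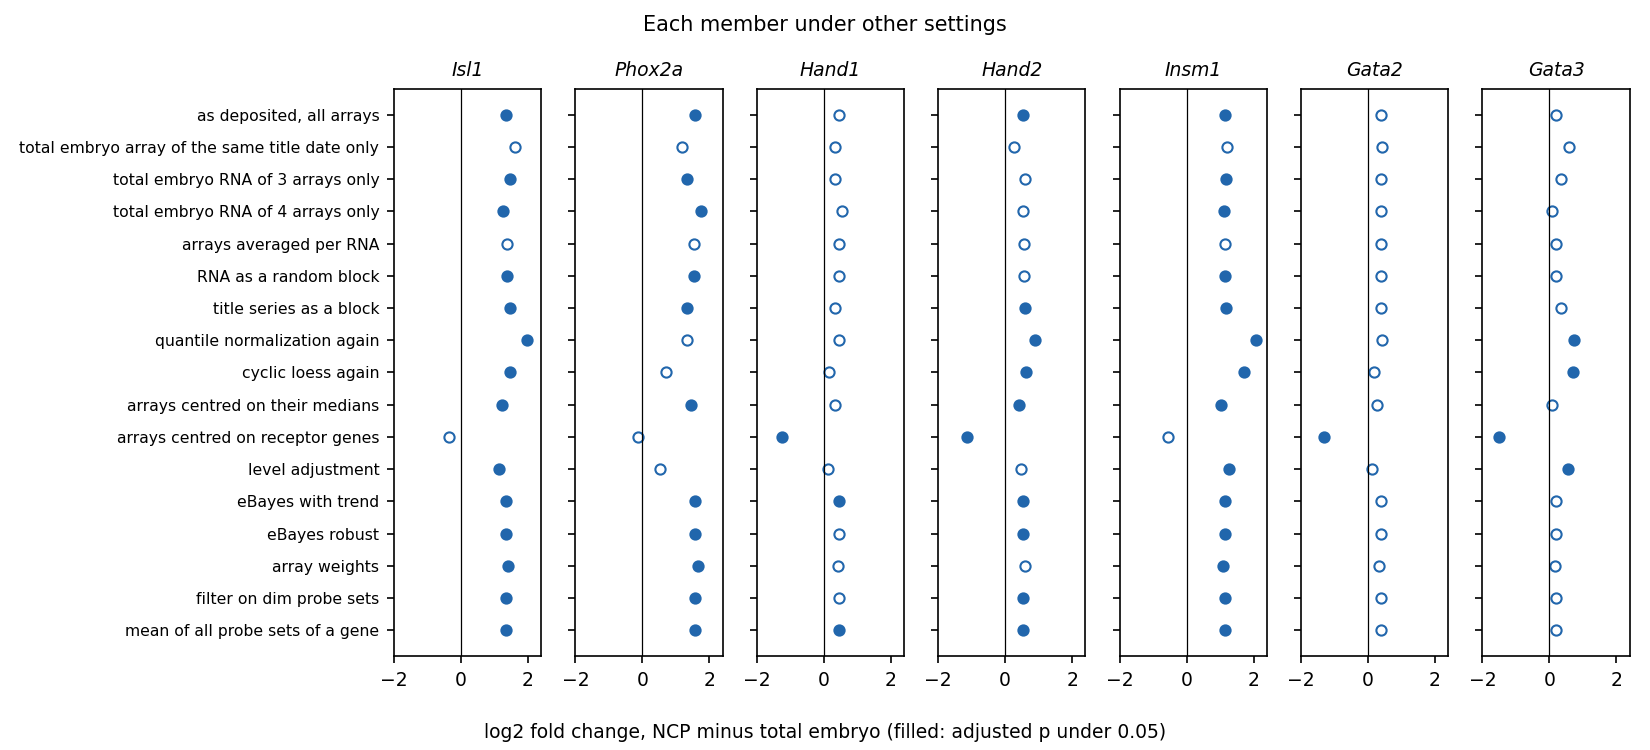
Log2 fold change (horizontal axis) of each member (panels) under each setting (rows), filled where the adjusted p is under 0.05. *Isl1* and *Insm1* stay filled in the same settings, with open circles only against the array of the same title date, with arrays averaged per RNA and with arrays centred on receptor genes.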

How the data were processed

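RNA of sorted *Sox10*-H2BVenus+ NCPs (3 arrays) and of total embryo (7 arrays) had been hybridized to Affymetrix mouse Gene 1.0 ST arrays. The deposited table holds log2 values, which the authors made by RMA in Affymetrix Expression Console 1.1. Which arrays were normalized together, and a genome build, are not given in the sources used here. The labels name a GeneChip labelling kit and the methods name NuGEN amplification. Groups came from the labels, and replicate numbers only name arrays.

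Control probe sets (6568 of 34760) were left out and 28192 tested with limma 3.58.1 in R 4.3.3 (prior of 4.65 degrees of freedom, adjusted p under 0.05 after Benjamini-Hochberg adjustment). Of these, 21640 carry 1 symbol, 1321 several and 5231 none. A gene's probe set is its single-symbol probe set with the highest mean. Intervals are 95% intervals of the moderated fit, and the number of arrays limits the precision. For level adjustment, each array's difference from the total embryo mean was smoothed on that mean by lowess (span 0.3), and the smooth curve was removed. Fits were tested on data simulated with independent arrays, so that test does not cover arrays that share an RNA. Genes named beside the members are, per list, up to 2 of the largest increases and 2 of the largest decreases past the threshold, the 3 genes most alike to each member past it, and *Sox10*; *Erbb3* was added after its values were seen. The members, lists and level adjustment were chosen with earlier results of these data known. Promoters were read from RefSeq tables, and figures drawn with Python 3.11.15. Other settings changed control arrays, blocks, scaling, test, filter and probe set choice, and left out each array.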

Additional observations from a re-analysis of the deposited data

How the results depend on the processing

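Over 26 alternative settings, the number of members higher in NCPs lay between 3 and 5 except in 3: it was 0 against the total embryo array of the same title date (1 at an unadjusted p under 0.05 in limma, with 1.29% of all probe sets called higher), 0 with arrays averaged per RNA (3 unadjusted) and 0 with arrays centred on receptor genes (0 unadjusted). The number lower was 0 except with arrays centred on receptor genes, where it was 4. That centring called 21976 of all 28192 probe sets lower and 1338 higher. Leaving out each array in turn gave 4 to 5 members higher and 0 lower. Centring on receptor genes turned *Isl1* to −0.34, *Phox2a* to −0.12, *Hand1* to −1.23, *Hand2* to −1.15, *Insm1* to −0.55, *Gata2* to −1.31 and *Gata3* to −1.51. The call was lost, apart from these turns, in 2 settings for *Isl1*, 2 for *Insm1*, 5 for *Phox2a* and 8 for *Hand2*, and gained in 3 for *Hand1*, 1 for *Gata2* and 3 for *Gata3*. *Hand1* also passed with a trended prior (adjusted p = 0.0453) and with probe sets averaged per gene (adjusted p = 0.0498). Its change was 0.46 in both, as in the main fit, and it has only 1 probe set. With RNA as a random block 3 members were higher, and with the title series as a block 4. Counts for the other lists moved by over 1.5 times in up to 16 of the 26 settings. No paired analysis was possible because replicate numbers were given in order of deposit and pair no samples. With 1 control array of the same date and 2 control RNAs as the tags were read, the spread between total embryo RNAs is poorly measured. Of the settings chosen after seeing the data, the level-matched places without NCP array 2 are within the ranges given, averaging per title tag as written kept 3 calls (*Isl1* 1.33, *Phox2a* 1.67, *Insm1* 1.13) and lost *Hand2* (0.59, adjusted p = 0.0687), and NCP arrays 1 and 3 against the array of the same title date gave 1.99 for *Isl1* (adjusted p = 0.0969), 1.60 for *Phox2a* (adjusted p = 0.217) and 0.92 for *Insm1* (adjusted p = 0.434).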
